A study of Ovis aries with 40 samples.

Results

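Solute carriers are membrane proteins that move sugars, amino acids, fatty acids, ions, metals, vitamins and nucleotides across the plasma membrane and the membranes of organelles. Most SLC25 carriers sit in the inner mitochondrial membrane, where they pass ADP, ATP, phosphate, malate, aspartate, acylcarnitines and other metabolites between the cytosol and the matrix. In skeletal muscle the transporters known best are the glucose transporter GLUT4 (SLC2A4), which moves to the cell surface under insulin, the lactate transporters MCT1 (SLC16A1) and MCT4 (SLC16A3), the creatine transporter (SLC6A8) and the ADP/ATP carriers. All genes whose symbol begins with SLC and a digit were taken, with SLC12A2 left out, which gave 178 genes of the 9155 genes that had a probe set with a single symbol. Of these 27 were SLC25 carriers and 151 were other solute carriers. SLC4A1AP and SLC7A6OS entered by their symbols only and are not transporters.

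The samples were longissimus dorsi muscle, the long back muscle of the loin, from 40 Poll Dorset sheep at 78 weeks of age, each hybridised to 1 Affymetrix GeneChip Bovine Genome array. High muscling animals (19) were those classed as high by the estimated breeding value for eye muscle depth, the progeny of sire 11 (8 progeny), sire 2 (7) and sire 7 (4). Low muscling animals (21) were those classed as low, the progeny of sire 16 (8), sire 17 (5) and sire 5 (8). All were raised under the same Australian industry standards with no treatment, and neither sex, dam nor array batch was in the labels used here. Each sire belonged to 1 muscling group, so a difference between the groups rests on 3 sires against 3. The values were MAS5 signals in arbitrary units, and the probes were designed on cattle sequence and used on sheep RNA. Signals of different probe sets are therefore not amounts that can be set against each other, and fewer cells of a type and less RNA per cell cannot be told apart in whole muscle.

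The trimmed mean of every array lay between 200.07 and 200.09, and the median signal of the arrays between 56.1 and 67.0. The correlation of log2 signal between pairs of arrays had a median of 0.936 (0.902 to 0.963). All 6 measured skeletal muscle markers, among them CKM, ACTA1 and MYH1, were detected, with summed signals of 127160 to 182860. Most measured markers of other cell types were detected too. These were 3 of 4 adipocyte, 4 of 5 endothelial, 4 of 4 macrophage, 2 of 3 T cell and 5 of 5 fibroblast markers. So were 4 of 4 smooth muscle and 2 of 2 nerve markers, but only 1 of 4 erythroid markers. The adipocyte marker LEP, the endothelial marker KDR, the T cell marker CD2 and the erythroid markers HBB, ALAS2 and AHSP were below the detection limit.

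A gene was called detected when the mean signal of its brightest probe set reached 61.8, the median over all probe sets other than controls. Of the 178 solute carrier genes 92 (51.7%) were detected, against 6360 of the 9155 genes (69.5%). Of the SLC25 carriers 19 of 27 (70.4%) were detected, close to the share of all genes, and of the others 73 of 151 (48.3%), a difference that was not tested. The genes closest to the limit were SLC8B1 (58.5), SLC22A17 (59.2) and SLC19A1 (60.3) below it, and SLC20A2 (62.1), SLC46A1 (62.3) and SLC25A44 (62.98) above it. Each SLC family was placed whole in a substrate class. By class, all 3 monocarboxylate transporters and 13 of 16 members of the nucleotide sugar family (SLC35) were detected. Only 12 of 27 genes of the amino acid, 6 of 15 of the sugar, 2 of 5 of the fatty acid and 6 of 16 of the ion and acid-base class were. The amino acid class thus holds the creatine transporter SLC6A8 and the heavy chain SLC3A2.

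The brightest probe sets belonged to the mitochondrial carriers. SLC25A4, the main ADP/ATP carrier of heart and skeletal muscle, had a signal of 18960 ± 1374.5 (SD, n = 40), and SLC25A3, which imports phosphate into the matrix for ATP synthesis, had 15521 ± 1507.6. They also had the lowest SDs of log2 signal of the 92 detected members, 0.10 and 0.14 over the 40 animals. The median SD was 0.45 over the 92 detected members and 0.38 over all detected genes. Next in signal were SLC25A11, the oxoglutarate-malate carrier (3079 ± 737, SD, n = 40), SLC25A12, an aspartate-glutamate carrier that works with SLC25A11 in the malate-aspartate shuttle (2478 ± 624), SLC25A6, another ADP/ATP carrier (2096 ± 694), and SLC25A20, which exchanges carnitine for acylcarnitines (1506 ± 403).

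Outside SLC25 the brightest were SLC38A2, a sodium-coupled transporter of small neutral amino acids (1240 ± 391, SD, n = 40), SLC16A3, which exports lactate (1171 ± 319), and SLC35A1, which brings CMP-sialic acid into the Golgi (1015 ± 97.2). SLC6A8, the creatine transporter, had 307 ± 63.7, SLC16A1, the lactate and pyruvate transporter of oxidative fibres, had 266 ± 108, and the fatty acid transport proteins SLC27A1 and SLC27A4 had 128 ± 38.0 and 108 ± 29.9. SLC2A4 (GLUT4) was dim on this array, with a lowest signal of 15.3, a median of 40.7 and a highest of 369.5, and SLC2A1 (GLUT1) had 8.1, 78.2 and 134.4. The taurine transporter SLC6A6 (33.1 ± 16.3) and the leucine exchanger subunit SLC7A5 (44.0 ± 25.5) did not reach the limit, while SLC3A2, the heavy chain that pairs with SLC7A5, did (227 ± 50.9). Of 20 carriers with a known role in muscle fuel or amino acid supply, 18 were detected.

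**Figure D1:**
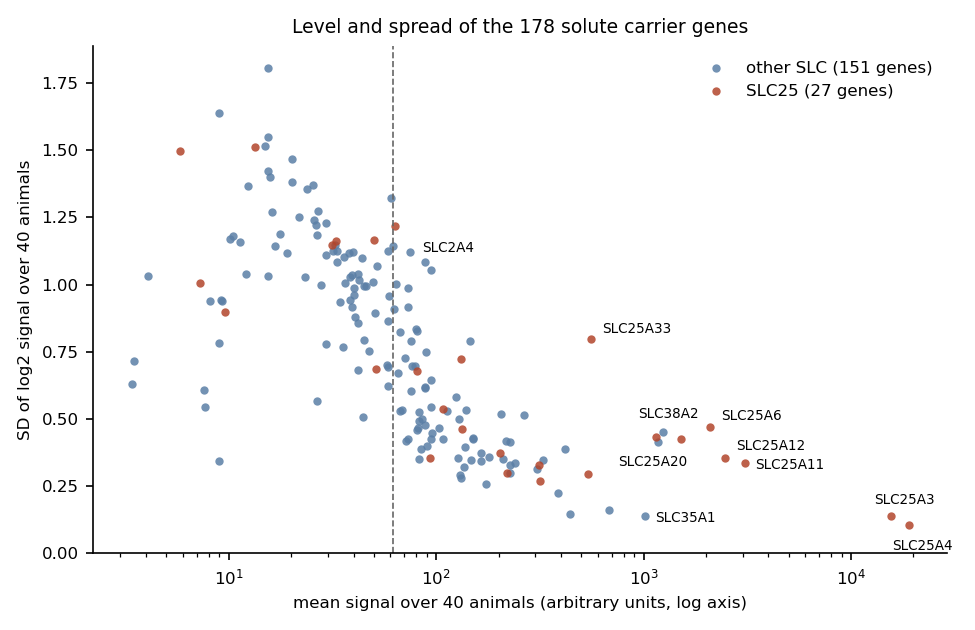
Mean signal over the 40 animals (horizontal, log axis, arbitrary units) against the SD of log2 signal (vertical) for the 27 SLC25 genes (red) and the 151 other solute carrier genes (blue), 1 point a gene. The dashed line is the detection limit of 61.8. SLC25A4 and SLC25A3 stand at the far right with the lowest spread of the bright members, and the spread widens towards the limit.

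The first question was whether the carriers differed between high and low muscling animals. Of the 92 detected members 1 passed the test (limma with sire as a random block, Benjamini-Hochberg adjusted p below 0.05 over all 6360 genes), which is 1.09% beside 7.78% of all detected genes, and it was lower in high muscling. No member was higher in high muscling, where 2.28% of all genes were called, and 5.5% of all genes were called lower. At an unadjusted p below 0.05 there were 9 members (9.78%), beside 1386 of all 6360 genes (21.8%). The detected members were dimmer than the background, with a median signal of 128 beside 230 over all detected genes. When the detection limit was raised to 200, 1 of 30 members and 9.51% of 3479 genes were called. The part of brightness in these shares was not tested. The median difference, high minus low, was 0.05 on the log2 scale for the members, 0.02 for SLC25 and 0.07 for the others, beside -0.04 over all detected genes.

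The gene called was SLC25A6. Its signal ran from 971.1 through a median of 1546 to 2324.8 in the 19 high muscling animals and from 1347.5 through 2535 to 3990.8 in the 21 low muscling animals. The ranges overlapped, but the median of each high muscling family lay below that of every low muscling family. The family medians were 1521 (sire 11), 1733 (sire 2) and 1554 (sire 7) against 2785 (sire 16), 1977 (sire 17) and 2732 (sire 5). The difference was -0.61 on the log2 scale (SE 0.15, 95% interval -0.91 to -0.30, adjusted p = 0.0101), or 0.656 of the low muscling level. With only the 6 family means as samples, the difference was -0.58 and no longer called (adjusted p = 0.219 by limma), and none of the 6360 genes was called in that fit (886 at an unadjusted p below 0.05). With the mean over all its probe sets the difference was -0.32 (adjusted p = 0.0368).

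The call was lost without sire 16 or sire 5, while the difference changed little. Without the progeny of sire 16 it was -0.55 (adjusted p = 0.0966 by limma), and without those of sire 5 it was -0.52 (adjusted p = 0.219). Over all 6360 genes the calls fell from 495 to 29 and to 23 in these fits. The call held without any 1 of the other families, with adjusted p from 5.3e-04 to 0.0387 by limma.

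The symbol SLC25A6 belongs to 3 probe sets, and they did not move together. The one used, the brightest, was lower in high muscling, and so was the dimmest (mean signal 152), by 0.60 (SE 0.17, adjusted p = 0.0196 by limma with every detected probe set as a feature of its own). In that fit 7.37% of 12008 probe sets were called. The second probe set, with a mean signal of 601, had a difference of 0.24 in the opposite direction (SE 0.19, adjusted p = 0.501). Over the 40 animals its log2 signal correlated with that of the probe set used at -0.41, and the dimmest at 0.41. Its values followed the sires. In the progeny of sire 11 they ran from 785.8 to 1229.1 (median 965), and in those of sire 17 from 445.5 to 1290.7 (median 907). The progeny of sires 2, 7, 16 and 5 had family medians of 427, 450, 424 and 433 and a highest value of 550.6, so that every animal of sire 11 lay above every animal of those 4 families. For sires within muscling groups this probe set had a moderated F of 26.5 (adjusted p = 1.1e-07 by limma), where 21.4% of all detected probe sets were called. As the ADP/ATP carrier genes are near copies of each other, the gene behind each of these probe sets in sheep is uncertain.

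**Figure D2:**
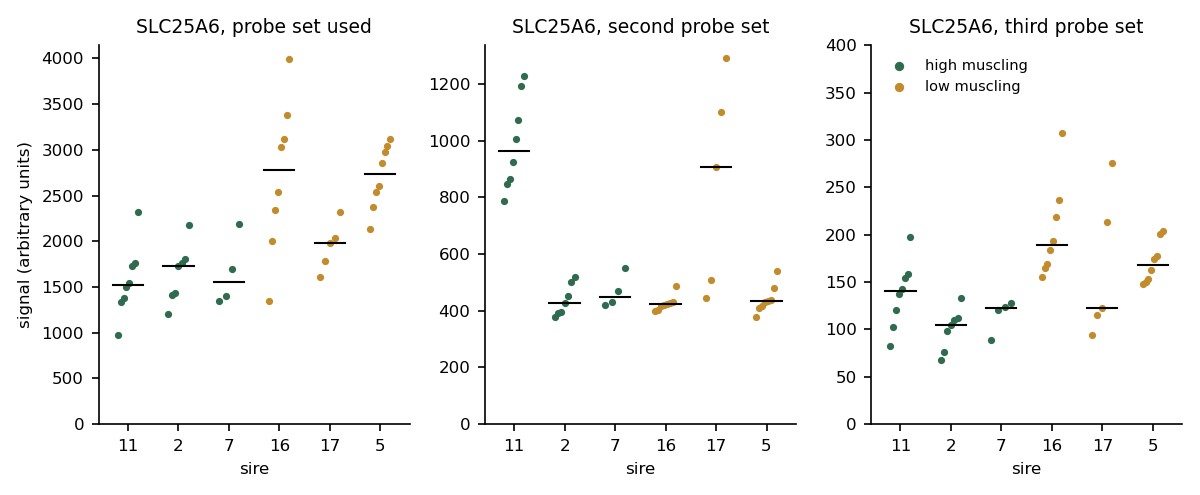
Signal (arbitrary units) of the 3 probe sets annotated to SLC25A6, by sire, with high muscling in green and low muscling in ochre, 1 point an animal and the family median as a bar. The probe set used is higher in the families of sires 16 and 5, whereas the second is higher in all 8 progeny of sire 11 and in part of those of sire 17.

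The probe sets of the other ADP/ATP carriers differed in the size of their difference, and none was higher in high muscling. SLC25A4 differed by -0.01 (SE 0.06, 95% interval -0.13 to 0.11). The probe set used for SLC25A5 (mean signal 314) differed by -0.08 (SE 0.14), while a dimmer one (149) was lower in high muscling by 0.98 (SE 0.24, adjusted p = 0.0081 by limma over probe sets). That dimmer probe set had family medians of 117, 109 and 62.3 for sires 11, 2 and 7 against 189, 154 and 199 for sires 16, 17 and 5. Among the 117 detected probe sets of the members, 3 were called between the muscling groups, beside 7.37% of all detected probe sets. They were the dimmer one of SLC25A5 and the 2 of SLC25A6 named above.

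The next 5 members by p were outside SLC25 and were not called. SLC46A3, a lysosomal carrier, had a difference of 0.42 (SE 0.16, adjusted p = 0.108), from 137.1 to 351.3 (median 246) in high and 109.0 to 312.0 (median 175) in low muscling. SLC5A9, a sodium-coupled sugar transporter, had 1.01 (SE 0.42, adjusted p = 0.139), where the high muscling animals ran from 66.5 to 181.7 and the low muscling ones from 3.2 to 128.4. SLC35F6 had -0.80 (SE 0.32), SLC39A1, a zinc importer, -0.34 (SE 0.14) and SLC38A3, a glutamine transporter, 0.46 (SE 0.21), with adjusted p from 0.119 to 0.185. SLC35F6 reached the detection limit only through low muscling (mean signal 79.02, against 53.2 in high muscling), and SLC38A3 only through high muscling (78.5 against 59.7), so the filter drew on the same difference for both. In each of these 5 the ranges of the 2 groups overlapped. GLUT4 (SLC2A4) had a difference of -0.51 with an SE of 0.47 and a 95% interval from -1.46 to 0.44. Similarly, SLC16A1, SLC16A3, SLC6A8, SLC27A1 and SLC22A5 had differences between -0.09 and 0.23, each within 2 SE of 0.

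**Figure D3:**
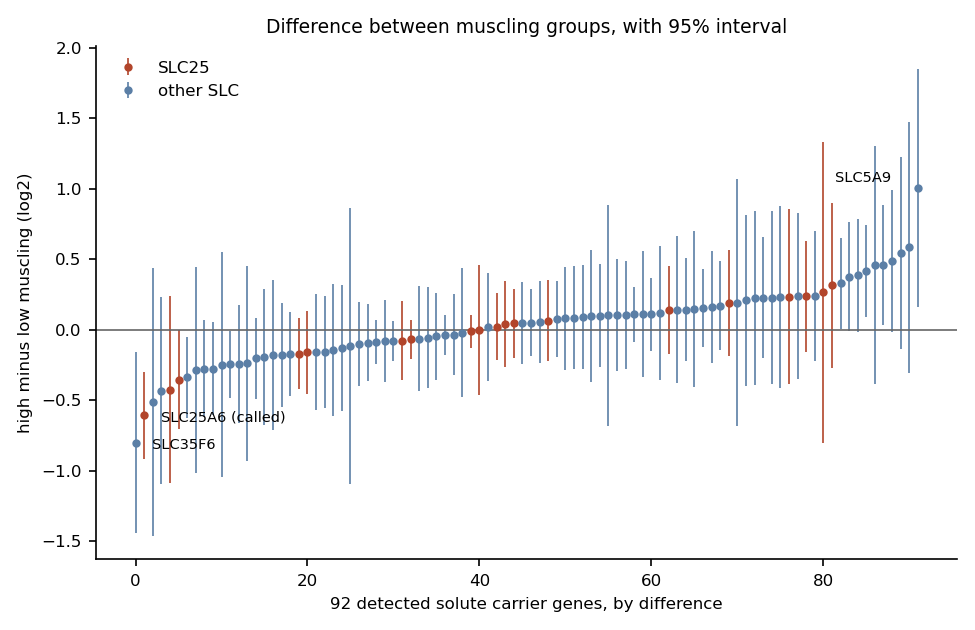
High minus low muscling difference (log2) with its 95% interval for the 92 detected solute carrier genes, ordered by difference, SLC25 in red and the others in blue. Only SLC25A6, at -0.61, was called, and SLC35F6 and SLC5A9 at the ends have wide intervals.

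The families were also compared by whether their means overlapped. In 8 members (8.70%) the mean log2 signals of the 3 high muscling families all exceeded those of the 3 low muscling families, and in 7 (7.61%) they were all lower, beside 7.85% and 11.4% of all detected genes, so neither share stood out above the background. All 8 with the high muscling families above were outside SLC25, and 2 of the 7 with them below were SLC25 carriers, SLC25A6 and SLC25A20. SLC25A20, the carnitine-acylcarnitine carrier, had family means of 10.47, 10.23 and 10.20 for sires 11, 2 and 7 against 10.62, 10.70 and 10.67 for sires 16, 17 and 5. Its difference of -0.35 (SE 0.17) had an adjusted p of 0.227 by limma. A dimmer probe set of SLC25A20 (mean signal 124) differed by -0.10 (SE 0.16, adjusted p = 0.776 by limma over probe sets). There the family medians of the groups overlapped, at 110, 138 and 126 for sires 11, 2 and 7 against 116, 115 and 132 for sires 16, 17 and 5. The genes SLC25A20 works with, CPT1B, CPT2 and CRAT, differed by -0.22, 0.03 and -0.06, and none was called.

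Genes around the transporters were read from fixed lists of pathway partners. In the high minus low contrast none of the 5 genes of the mitochondrial pyruvate carrier and the porins, of the 6 detected genes of insulin signalling and GLUT4 traffic, of the 5 creatine genes or of the 2 lactate dehydrogenases was called. Of 79 nuclear genes of oxidative phosphorylation 12 were lower in high muscling and none was higher. Among 5 genes of fatty acid uptake FABP3, a cytosolic fatty acid binding protein, was lower by 1.08 (SE 0.33, adjusted p = 0.0385 by limma). Some markers of other cell types moved in the same contrast, where 5.5% of all genes were called lower. Of 5 fibroblast markers 3 were lower in high muscling (COL1A1, COL3A1 and DCN), with summed signals of 4120 to 8891 in high and 6075 to 17138 in low muscling. LUM (-0.52) and PDGFRA (0.30) were not called. Of 4 macrophage markers 1 was lower (AIF1), with sums of 346.5 to 930.1 against 422.1 to 1664.1. Of 4 smooth muscle markers 1 was lower (TAGLN), while ACTA2 (-0.20), MYH11 (0.07) and RGS5 (0.11) were not called. No marker of skeletal muscle, adipocytes, endothelium, T cells, erythroid cells or nerve was called. The signal of the hybridisation controls averaged 11.54 (log2) in high and 11.45 in low muscling. The part of these shifts in the SLC25A6 difference was not tested, except that with the hybridisation controls as a covariate the difference was -0.60 (adjusted p = 0.0294 by limma).

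The second question was whether progeny of different sires differed within a muscling group. A moderated F test over the sire contrasts in limma called 6 of the 92 members (6.52%), beside 22.0% of all detected genes. When the detection limit was raised to 200, 5 of 30 members and 37.2% of 3479 genes were called. The part of brightness was not tested here either. The 6 members called were 2 SLC25 carriers, SLC25A16 and SLC25A51, 3 members of the nucleotide sugar family, SLC35A3, SLC35A4 and SLC35D2, and the carnitine transporter SLC22A5.

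In the families of high muscling, sire 11 stood apart for 5 of these 6 genes. SLC25A51, known in human cells as the mitochondrial NAD transporter, ran from 224.4 through 261 to 349.7 in progeny of sire 11, from 172.5 through 192 to 257.0 in those of sire 2 and from 137.2 through 175 to 221.2 in those of sire 7. Progeny of sire 11 thus lay above all of sire 7 and overlapped sire 2 only in part (1.37-fold and 1.57-fold against sires 2 and 7 in the geometric means, F = 6.02, adjusted p = 0.0078 by limma). SLC25A16, a carrier linked to coenzyme A, ran from 188.4 to 347.4 (median 224) in progeny of sire 11, from 114.9 to 229.3 (170) in sire 2 and from 95.7 to 180.4 (146) in sire 7, again with sire 11 above all of sire 7 (1.76-fold, F = 7.93, adjusted p = 0.0017). In low muscling its medians were 187, 206 and 229 for sires 16, 17 and 5.

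SLC35A3, which carries UDP-N-acetylglucosamine into the Golgi, had medians of 146, 104 and 106 in the families of sires 11, 2 and 7 and of 123, 120 and 128 in those of sires 16, 17 and 5 (F = 5.73, adjusted p = 0.0098). SLC35A4 went the other way. It ran from 176.0 to 328.9 (median 255) in progeny of sire 11 and from 360.0 to 431.3 (median 398) in progeny of sire 2, with no overlap, and from 265.0 to 547.8 in progeny of sire 7. Its family mean in sire 2 was 1.58-fold that of sire 11 (F = 7.70, adjusted p = 0.0020), while the low muscling families had medians of 320, 306 and 302. A dimmer probe set of SLC35A4 (mean signal 217) was called too (F = 4.0, adjusted p = 0.0425 over probe sets). SLC22A5, the carnitine transporter of the plasma membrane, had medians of 215, 145 and 127 in the families of sires 11, 2 and 7 (F = 4.18, adjusted p = 0.0356), and 149, 168 and 151 in low muscling. Its dimmer probe set (105) was not called (F = 0.211, adjusted p = 0.953).

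SLC35D2, another nucleotide sugar transporter, was the exception. Its low family was sire 17, with signals from 31.8 to 97.6 (median 50.6) against 60.1 to 105.3 (86.4) in sire 16 and 62 to 114.8 (89.7) in sire 5 (F = 4.51, adjusted p = 0.0267). Without the progeny of sire 11 none of the 92 members was called between sires, when 6.40% of all genes were. The F of SLC35D2 was then 4.41 (adjusted p = 0.109), close to its full value, whereas those of the other 5 were 0.141 to 3.06 (adjusted p from 0.231 to 0.970). SLC35D2 instead had an F of 2.24 (adjusted p = 0.278) without the progeny of sire 17, and of 4.18 (adjusted p = 0.0600) without those of sire 5.

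**Figure D4:**
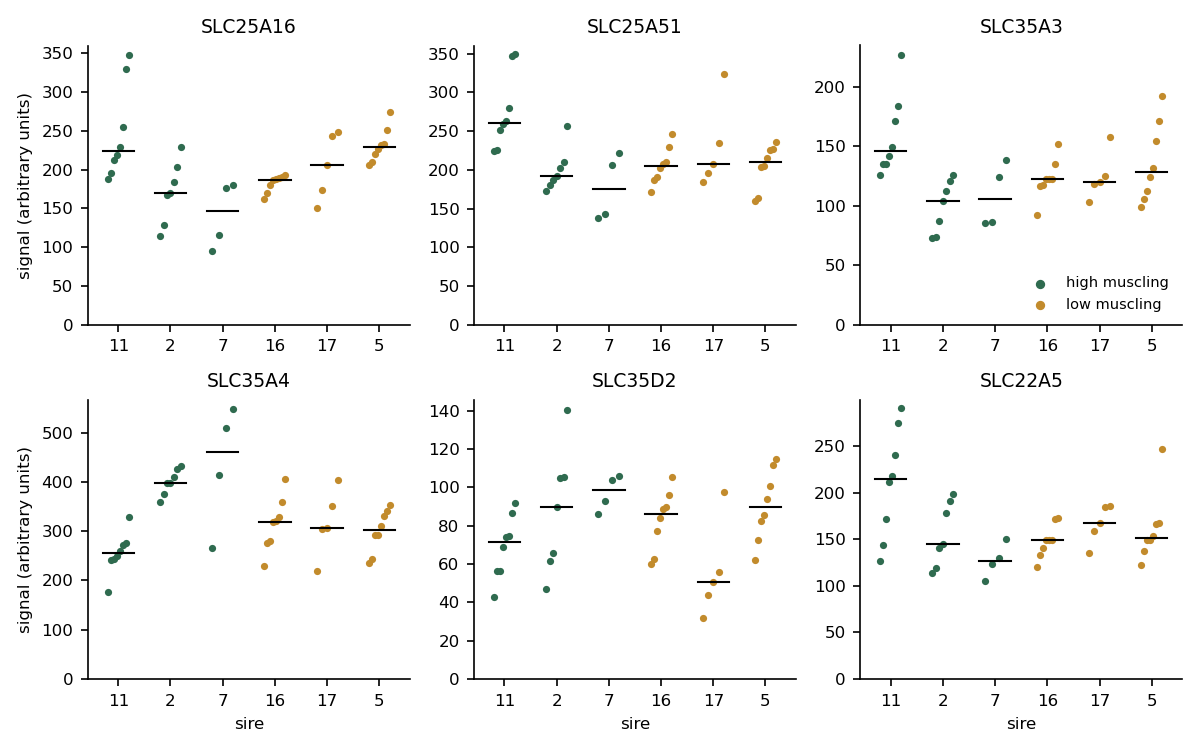
Signal (arbitrary units) by sire for the 6 members called between sires within muscling groups, 1 point an animal, with the family median as a bar, high muscling in green and low muscling in ochre. Progeny of sire 11 are high for SLC25A16, SLC25A51, SLC35A3 and SLC22A5 and low for SLC35A4, and progeny of sire 17 are low for SLC35D2.

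By probe set, 9 of the 117 detected probe sets of the members were called between sires, beside 21.4% of all 12008 detected probe sets. Of these 9, 3 were not the one used for the gene. Besides those of SLC25A6 and SLC35A4, the dimmer probe set of SLC38A2 (mean signal 485) had an F of 12.9 (adjusted p = 6.0e-05 by limma). Its family medians were 755, 315 and 354 for sires 11, 2 and 7 and 328, 684 and 367 for sires 16, 17 and 5, so sires 11 and 17 were the high families, as for the second probe set of SLC25A6. The probe set used for SLC38A2 had family medians from 1101 to 1485 and was not called (F = 0.976, adjusted p = 0.580).

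The third question was which carriers varied among animals with the genes of oxidative phosphorylation. For every animal the standardised log2 signals of the 79 detected nuclear oxidative phosphorylation genes were averaged and scaled to an SD of 1, and the log2 signal of each gene was regressed on this score with sire as a fixed term. The list and the score were chosen with earlier results of these arrays known. The score had family medians between -1.06 (sire 17) and 0.77 (sire 5), and the highest single value was 2.82, in progeny of sire 5. Of the 92 members 8 had a slope called (8.70%), beside 7.63% of all detected genes. With a positive slope there were 5 members (4.31% of all genes) and with a negative slope 3 (3.32% of all genes). Among SLC25 carriers 4 of 19 were called (21.1%), and among the others 4 of 73 (5.48%), a difference between the sets that was not tested. The sets also differed in brightness, with a median signal of 317 for SLC25, 95.4 for the others and 230 over all detected genes. When the detection limit was raised to 200, 16.2% of 3479 genes and 8 of 30 members had a slope called. The part of brightness in the difference between the sets was not tested.

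Of the SLC25 carriers 3 rose with the score. Signals at the ends of the score are given here and below without regard to family. The 5 animals with the highest scores were low muscling progeny of sires 5 and 16. The 5 with the lowest were progeny of sires 2, 11 and 17. The ends therefore differ in family and muscling group as well, unlike the slopes, which were fitted within families. The members shown at the ends were picked by their slopes on the same score, so the ends are a description and no further test. SLC25A3, the phosphate carrier, ran from 13159 through 13622 to 14053 in the 5 animals with the lowest scores and from 15666 through 17115 to 20143 in the 5 with the highest, with no overlap. Its slope was 0.14 per SD of the score (SE 0.03, adjusted p = 6.8e-04 by limma), or 9.91% per SD. SLC25A11, the oxoglutarate-malate carrier, had medians of 2240 and 3431 at those ends and a slope of 0.26 (SE 0.05, adjusted p = 0.0015). SLC25A12, the aspartate-glutamate carrier, had medians of 1827 and 3293 and a slope of 0.30 (SE 0.06, adjusted p = 0.0013), and the ranges at the ends overlapped for both. The malate-aspartate shuttle, which carries reducing equivalents from the cytosol into mitochondria, thus had SLC25A11 and SLC25A12 among the genes that rose.

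The other probe sets of SLC25A12 also had positive slopes. One with a mean signal of 1024 had a slope of 0.42 (SE 0.07, adjusted p = 3.2e-04 over probe sets, of which 4.81% were called), and a dimmer one (163) had 0.24 (SE 0.08, adjusted p = 0.0692). The other probe set of SLC25A11 was below the detection limit (mean signal 48.5). Its log2 signal correlated at 0.26 with that of the probe set used, and at 0.12 with the score with sire means removed. With the mean over its probe sets SLC25A11 was not called. SLC25A4, the ADP/ATP carrier, had a slope of 0.08 (SE 0.02) and an adjusted p of 0.0505, just outside the limit, whereas the slopes of SLC25A6 (0.05, SE 0.08) and SLC25A5 (-0.08, SE 0.07) were within 2 SE of 0. For SLC25A6 this held within families only, since its correlation with the score over the 40 animals was 0.54, and 0.12 with sire means removed. The dimmer probe set of SLC25A5 (149) had a slope of -0.25 (SE 0.11), more than 2 SE below 0 but not called (adjusted p = 0.228 by limma over probe sets). SLC25A20, the carnitine-acylcarnitine carrier, had a slope of 0.02 (SE 0.09).

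SLC25A33, a carrier of pyrimidine nucleotides, fell with the score. It ran from 548.5 through 624 to 939.4 in the 5 animals with the lowest scores and from 162.2 through 543 to 1143.3 in the 5 with the highest, so the ends overlapped, and its slope within families was -0.54 (SE 0.14, adjusted p = 0.0127). Its dimmer probe set (465) had -0.62 (SE 0.18, adjusted p = 0.0340 over probe sets) and correlated with the one used at 0.95. Its spread over the 40 animals was wide for its signal, with an SD of 0.80 on the log2 scale and values from 162.2 to 1182.8.

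Outside SLC25, SLC16A1 (MCT1) and SLC4A4, a sodium bicarbonate cotransporter, rose with the score, and SLC20A1, a sodium-dependent phosphate importer, and SLC35F6 fell. SLC16A1 had a slope of 0.33 (SE 0.10, adjusted p = 0.0442) and medians of 235 and 267 at the ends of the score. SLC4A4 had 0.37 (SE 0.10, adjusted p = 0.0191) and medians of 68.3 and 100.6. SLC20A1 had -0.23 (SE 0.07, adjusted p = 0.0445) and medians of 435 and 348, and SLC35F6, close to the detection limit, had -0.52 (SE 0.14, adjusted p = 0.0200) and medians of 89.8 and 67.7. In all 4 the signals at the ends overlapped. SLC16A3 (MCT4), the lactate exporter, had a slope of 0.02 (SE 0.10), SLC2A4 one of -0.27 (SE 0.24) and SLC6A8 one of -0.11 (SE 0.06), none of them called.

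**Figure D5:**
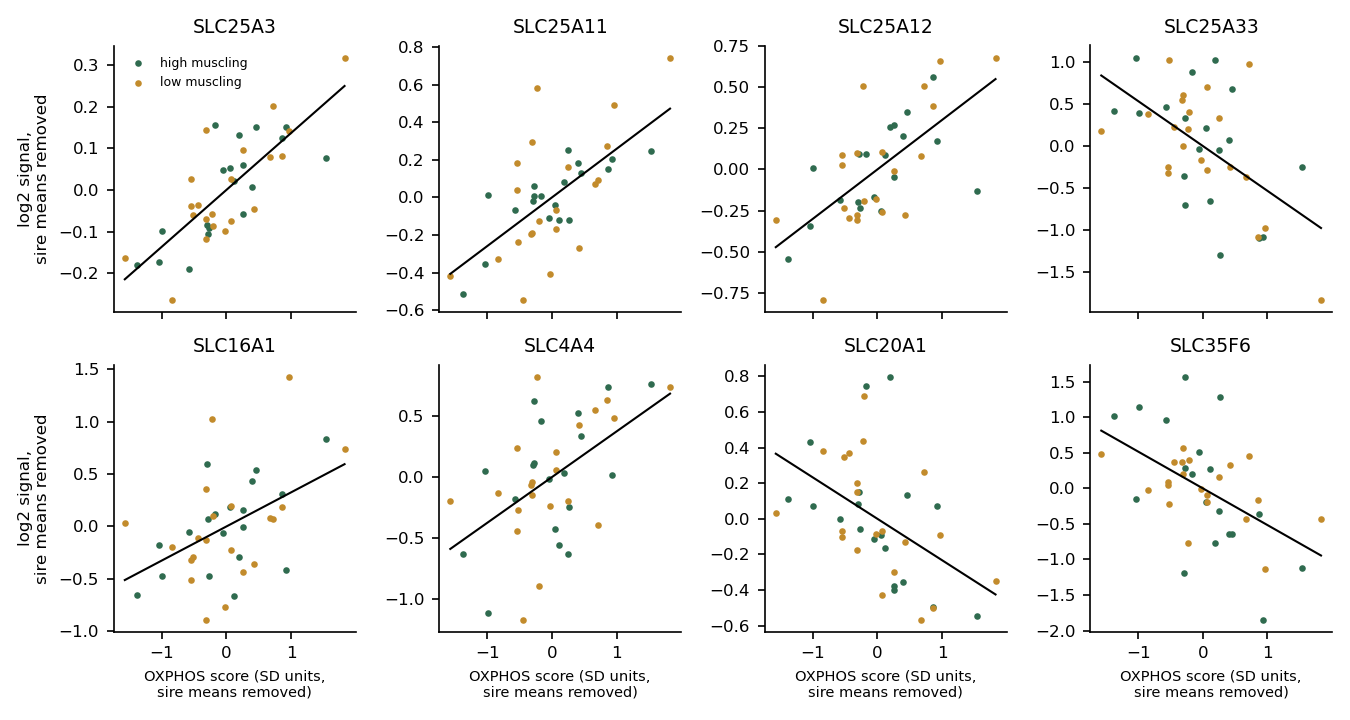
Log2 signal against the oxidative phosphorylation score (SD units), both with sire means removed, for the 8 members with a called slope, 1 point an animal, high muscling in green and low muscling in ochre, with the fitted slope as a line. SLC25A3, SLC25A11 and SLC25A12 follow the line most closely, and the animal at the far right is from the family of sire 5.

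Partners of these carriers were read in the same test, where 4.31% of all genes were called positive and 3.32% negative. Several lists were bright, with median signals of 7457 (pyruvate carrier and porins), 2099 (creatine) and 9764 (lactate dehydrogenases), beside 230 over all detected genes. Once the detection limit was raised to 200, 16.2% of 3479 genes were called in either direction. The part of brightness in the counts of partners was not tested. Of the 5 genes of the pyruvate carrier and the porins, which pass metabolites through the inner and outer membrane, 4 rose (MPC1, slope 0.22, MPC2, 0.11, VDAC1, 0.07 and VDAC2, 0.14) and VDAC3 had a slope of 0.00. BSG, the chaperone of MCT1 and MCT4 at the cell surface, rose (0.21, SE 0.06, adjusted p = 0.0404), as did LDHA (0.13) and LDHB (0.28), which interconvert lactate and pyruvate. Of 5 creatine genes the mitochondrial creatine kinase CKMT2 (0.16) and GAMT (0.33) rose. Of the 3 enzymes of the carnitine shuttle CRAT fell (-0.25, SE 0.08, adjusted p = 0.0345), and none of the 6 genes of insulin signalling and GLUT4 traffic was called. Of the 5 genes of fatty acid uptake LPL, the lipase that frees fatty acids from lipoproteins, rose (0.45, SE 0.13, adjusted p = 0.0318). No marker of adipocytes, endothelium, macrophages, T cells, fibroblasts, smooth muscle, erythroid cells or nerve was called in this test, although the 3 adipocyte markers detected had slopes of 0.32 to 0.52, and of 6 skeletal muscle markers TNNT3 rose (0.09). With sire means removed the score correlated with the hybridisation controls at 0.44 over the 40 animals, and with those controls as a covariate 5 members remained called, namely SLC25A3, SLC25A11, SLC25A12, SLC16A1 and SLC20A1.

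The slopes depended on the families. Without the progeny of sire 5 only 2 members were called, SLC35F6 and SLC46A3, neither an SLC25 carrier, when 1.10% of all genes were. The slopes were then 0.10 for SLC25A3 (adjusted p = 0.0870), 0.18 for SLC25A11 (0.146), 0.20 for SLC25A12 (0.114) and -0.44 for SLC25A33 (0.0928). With no term for sire SLC25A3, SLC25A11 and SLC25A12 remained called. The slopes of SLC25A33, SLC20A1 and SLC35F6 were then -0.07, -0.04 and -0.04, those of SLC16A1 and SLC4A4 were 0.15 and 0.12, and none of these 5 was called (adjusted p from 0.206 to 0.876). In that fit SLC25A6 (0.25, adjusted p = 0.0047), SLC25A4 (0.06, adjusted p = 0.0380) and SLC35B1 (0.08, adjusted p = 0.0211) were called as well. Slopes fitted apart in high and low muscling had the same sign in both groups for all 8, from 0.13 (SE 0.04) and 0.14 (SE 0.04) for SLC25A3 to -0.81 (SE 0.20) and -0.27 (SE 0.18) for SLC35F6, the pair furthest apart (difference -0.53, SE 0.27), and the difference of slopes was called for none of the 92 members or the 6360 genes (at an unadjusted p below 0.05 there were 5 members, 5.43%, beside 4.54% of all genes, limma).

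The carriers did not vary together as a class. Over the 40 animals the median correlation of log2 signal between pairs was 0.01 for the 171 pairs of SLC25 genes and 0.01 for the 2628 pairs of the others, beside 0.01 for all pairs of detected genes and 0.44 for the oxidative phosphorylation genes, which define the score. The highest of the 4186 member pairs, picked as such, was SLC25A11 with SLC25A12 (Pearson's r 0.81, Spearman's rho 0.82, and r 0.83 with sire means removed). SLC25A12 with SLC25A3 and SLC25A3 with SLC25A4 followed, each at 0.67 (0.78 and 0.72 with sire means removed), which links the phosphate, ADP/ATP and malate-aspartate carriers by their correlations. SLC25A33 paired with SLC20A1 (r 0.67, rho 0.70), another gene that fell with the score. For SLC25A20 with SLC25A34 r was 0.55 (0.75 with sire means removed), but rho was only 0.37. The lowest pairs were SLC17A5 with SLC30A2 (-0.59) and SLC16A1 with SLC6A8 (-0.56). These points share arrays and families, and the values are descriptions.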

How the data were processed

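Total RNA of 40 animals was hybridised to 1 array each. The authors deposited MAS5 signal intensities, on a linear scale with the trimmed mean (2% off each end) at 200, and these intensity values were used as deposited after log2. Of 24128 probe sets, 112 were controls, 13292 had 1 symbol in the platform annotation (of cattle), 86 had several and 10638 had none. 174 of the 178 symbols were found in the RefSeq sheep gene table. Where a gene had several probe sets, the brightest on average stood for it. No array pair was identical.

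Tests were run in limma 3.58.1 (R 4.3.3) on the 6360 detected genes, with Benjamini-Hochberg adjustment and a threshold of 0.05: high minus low muscling with sire as a random block (within-sire correlation 0.135), a moderated F over sires within groups, and the slope on the oxidative phosphorylation score with sire fixed. The number of arrays and of sires limits the precision, and animals of 1 sire share genes. Fits were tested on simulated data. Tables used Python 3.11.15. The members and lists were chosen with earlier results of these data known. Named genes were the members called in any test, the 6 with the lowest p between muscling groups, those extreme in signal, spread or slope, and 20 with a role in muscle. Alternatives were quantile normalization, median centring, other filters, the mean over probe sets, the hybridisation controls as a covariate, other treatments of sire and leaving out each family. Probe sets as features of their own were added after seeing the data, and the dimmer probe sets and the genes of the extreme pairs were named after their values were seen.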

Additional observations from a re-analysis of the deposited data

Results flagged for a closer look

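Among 90 groups of a carrier called in any test in 1 family, 4 held an animal set apart from the rest of its family by a wide gap. Chance gives about 1 in 20, so the number flagged is no higher than chance gives. SLC16A1 was 514.5 in progeny 65 of sire 16, and the others of that family ran from 177.1 to 289.1. SLC22A5 was 246.6 in progeny 34 of sire 5, against 122.6 to 167.6. SLC4A4 was 106.9 in progeny 71 of sire 17, against 65 to 74.4. SLC25A11 was low, at 2231.1, in progeny 5 of sire 2, where the others ran from 3100.0 to 3778.2.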

How the results depend on the processing

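Between muscling groups 1 member was called. The count was 2 with the mean over probe sets (SLC25A6 and SLC25A5), 11 with no block for sire, 0 with sire means as samples, and 0 to 4 when each family was left out in turn. Over all genes the 495 calls became 1586 with no block and 0 with sire means, and 23 to 1221 with families left out. Median centring gave 92 higher and 556 lower calls beside 145 and 350. The second probe set of SLC25A6 reversed its direction (0.24). Between sires 6 members were called, and 0 to 8 with families left out, when all calls ran from 407 to 1389 beside 1402. For the slope 8 members were called, 5 with the hybridisation controls as a covariate and 2 to 9 with families left out. With quantile normalization 6 were called, and SLC16A1 and SLC4A4 were not among them. Median centring also gave 6, with SLC25A4 added and SLC25A33, SLC20A1 and SLC35F6 lost. SLC25A3, SLC25A11 and SLC25A12 were called with either normalization. Over all genes the 485 slopes called (274 positive and 211 negative) became 964 with no term for sire, 353 positive and 105 negative with median centring, and 70 to 586 with families left out. The cause of these changes was not tested. No paired analysis was possible because the progeny numbers are unique. Dim probe sets limit the reading of GLUT4, whose log2 signal had an SD of 1.12.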
